A study of Homo sapiens with 6 samples.

Results

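The SLC25 mitochondrial carrier genes were taken as every row of the expression table whose symbol begins with SLC25A followed by a number. This gave 49 of 17177 genes, which were 48 symbols and a second row for SLC25A6 written SLC25A6-2. RNA-seq had been performed on NCI-H660, an established neuroendocrine prostate cancer (NEPC) cell line with the genotype label WT, so all libraries came from 1 line with no gene altered by the study. The cells received either PBS, as the control, or pyrvinium pamoate (PP), an anthelmintic drug, and were collected on day 3. There were 3 libraries per treatment, named here by treatment and replicate number. The sources used here do not state which PP concentration these cells received. The levels are FPKM (fragments counted on a gene, divided by its length in kilobases and by the size of the library). Recovered library totals ran from 29064253 to 32481171 counts. A figure legend of the study calls the samples independent, but neither it nor the labels say whether they were separate cultures, so p-values measure only the spread between these libraries.

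The carriers are membrane proteins of the inner mitochondrial membrane, encoded in the nucleus, built from repeated pairs of membrane-spanning helices, and mostly inserted by the TIM22 translocase. They exchange nucleotides, phosphate, cofactors, amino acids, carboxylates and metal ions between cytosol and matrix. They thereby connect respiration with cytosolic biosynthesis, and the ADP/ATP carriers deliver the ATP made by the respiratory chain to the cell.

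In the PBS libraries, the family was led by the ADP/ATP carrier SLC25A5, followed by SLC25A39, SLC25A11, SLC25A36 and SLC25A42. With PP, some carriers rose, chiefly SLC25A36 (2.13-fold by mean FPKM), SLC25A32 (1.67-fold), SLC25A42 (1.59-fold) and SLC25A46 (1.54-fold). Others fell, chiefly SLC25A48, to 0.257 of its PBS mean. The summed FPKM of the 49 rows was 870.7 ± 17.5 in the PBS libraries and 871 ± 18.2 in the PP libraries (SD, n = 3 each), a difference of 0.048% that was smaller than the SD of either group. The make-up of that sum did change. SLC25A5 gave 24.8% ± 1.04 of it with PBS and 18.1% ± 0.391 with PP (SD, n = 3 each). The share of SLC25A36 went from 5.43% ± 0.222 to 11.5% ± 0.719 (SD, n = 3 each). Without SLC25A5, a split chosen after its values were seen, the sum was 654 ± 5.35 with PBS and 713 ± 14.6 with PP (SD, n = 3 each). This was 8.97% higher, and the libraries of the groups did not overlap. Since the total hardly changed and SLC25A5 fell, the rest had to rise, so this is not a separate result. Within the rest, SLC25A36 alone went from a mean of 47.2 to 100.5 FPKM.

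**Figure D1:**
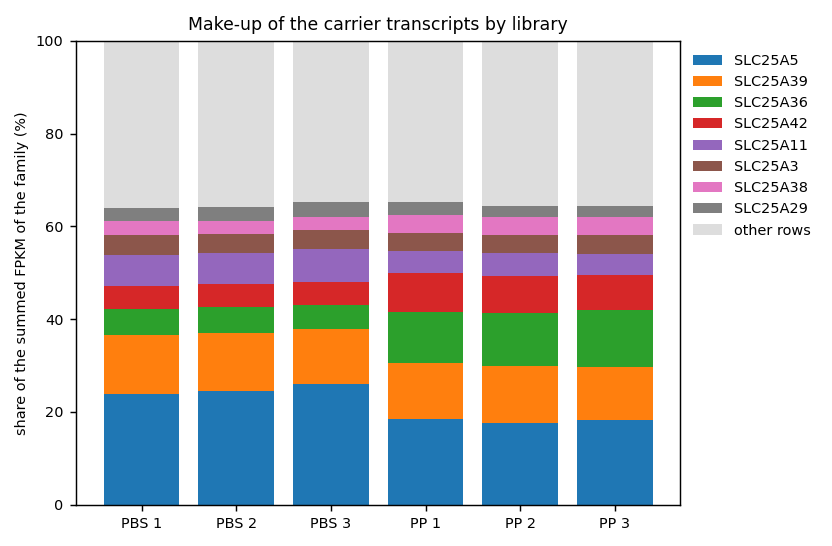
Share of the summed FPKM of the 49 carrier rows (%, y axis) given by 8 high-level members and by all other rows, for each of the 6 libraries (x axis). SLC25A5 gave 23.9% to 26.0% in the PBS libraries and 17.7% to 18.5% in the PP libraries, while SLC25A36 gave 5.19% to 5.62% and 10.995% to 12.4%.

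Differences were tested with limma on log2(FPKM + 1), which understates the change of low genes, over the 11726 genes whose mean FPKM reached 1. Of the 49 rows, 40 passed this filter. SLC25A2, SLC25A6, SLC25A18, SLC25A31, SLC25A34, SLC25A41, SLC25A47, SLC25A52 and SLC25A53 did not. At an adjusted p under 0.05 (Benjamini-Hochberg over all tested genes), 16 of the 40 tested members rose with PP, or 40%, where 38.1% of all tested genes rose. A further 12 members fell, or 30%, where 34.4% of all tested genes fell, and 12 were not called. Neither share was far from that of all genes. The median log2 difference was -0.02 for the 40 members and 0.02 for all tested genes, and the median size without regard to sign was 0.27 for both. The libraries of PP and PBS did not overlap for 30 of the 40 members, which was 75%, against 75% of all tested genes. All 28 called members were among these. The cutoff in the study's methods (P under 0.001, taken as unadjusted, with a log2 difference above 1 or below -1) was passed by SLC25A36 and SLC25A48, 2 of 40 members, against 5.18% of all tested genes.

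**Figure D2:**
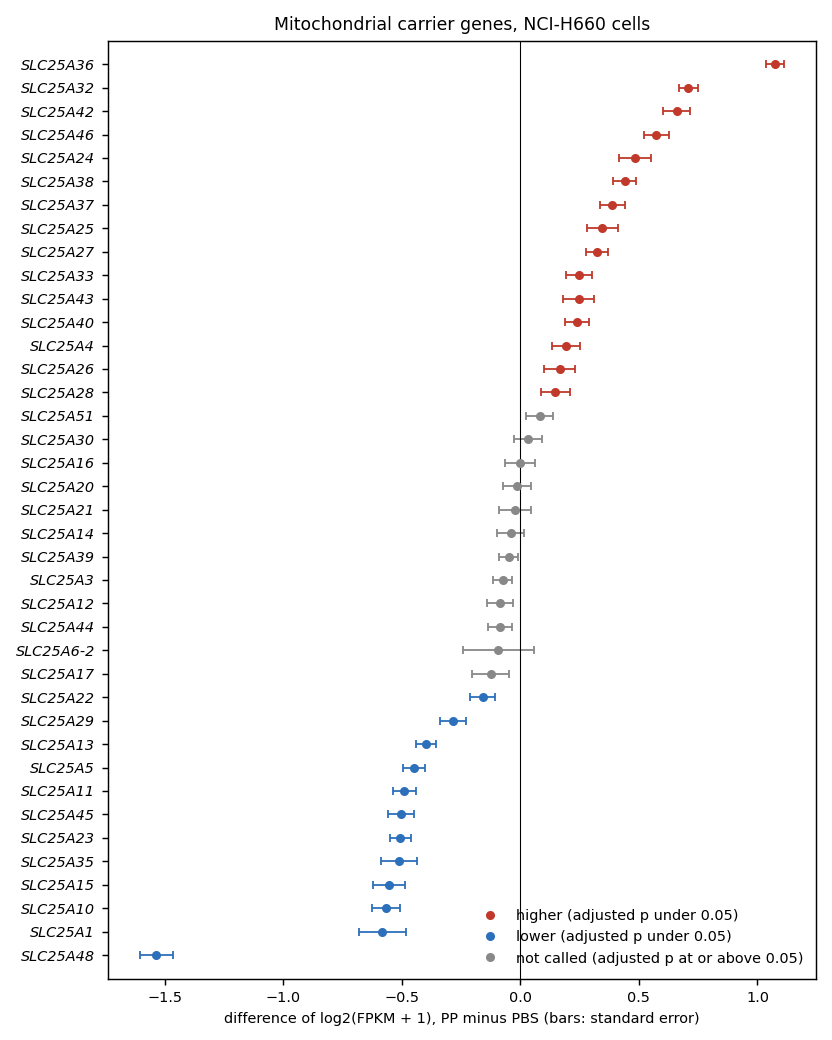
Difference of log2(FPKM + 1), PP minus PBS (x axis), for 39 of the 40 tested carriers (y axis), with the standard error from limma as bars and colour for the call at an adjusted p under 0.05. The 15 higher members plotted run from 0.15 to 1.07 and the 12 lower members from -0.16 to -1.54, and SLC25A36 and SLC25A48 stand at the ends.

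The cofactor and nucleotide carriers were 9 tested genes, of which 6 rose, 3 were not called and none fell. Beside the counts of this and the later sets of carriers, 38.1% of all tested genes rose and 34.4% fell. No set of carriers was tested as a whole. SLC25A36, a carrier of pyrimidine nucleotides, lies on chromosome 3 from 140660672 to 140699837 on the plus strand (hg19). Its FPKM was 48.4, 47.0 and 46.2 in PBS replicates 1, 2 and 3 and 97.4, 98.9 and 105 in PP replicates 1, 2 and 3. The groups were far apart, with 7469 to 8125 counts per library with PBS and 16194 to 18675 with PP. The log2 difference was 1.07 ± 0.04 (SE, adjusted p = 5.21e-09, limma), and the gene moved from the fourth to the third highest level in the family. SLC25A33, the other pyrimidine nucleotide carrier, rose less, with a log2 difference of 0.25 ± 0.05 (SE, adjusted p = 0.00182, limma).

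SLC25A32, a carrier of folate and FAD, was at 16.3, 16.1 and 16.4 FPKM in PBS replicates 1, 2 and 3 and at 27.9, 27.4 and 26.3 in PP replicates 1, 2 and 3. The groups were far apart and each was tight, with a log2 difference of 0.71 ± 0.04 (SE, adjusted p = 1.22e-07, limma). SLC25A32 shares 11.1% of its annotated exon bases with DCAF13 on the opposite strand, which had a log2 difference of 0.34. Whether the counting used strand is not given in the sources used here, and the part of DCAF13 in the SLC25A32 value was not tested. SLC25A42, which carries coenzyme A and adenine nucleotides, was at 40.9, 43.6 and 44.9 FPKM in PBS replicates 1, 2 and 3 and at 73.9, 69.5 and 63.0 in PP replicates 1, 2 and 3. All PP libraries were above all PBS libraries, with more spread among them, and the log2 difference was 0.66 ± 0.06 (SE, adjusted p = 3.07e-06, limma). SLC25A16, a carrier also linked to coenzyme A, was at 3.97 ± 0.0580 FPKM with PBS and 3.98 ± 0.308 with PP (SD, n = 3 each) and was not called.

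Among the remaining cofactor carriers, SLC25A26, which carries S-adenosylmethionine, had a log2 difference of 0.17 (adjusted p = 0.0457, limma). It was close to the threshold and lost the call in 5 of 6 cases when a library was left out. LRIG1 shares 12.2% of the exon bases of SLC25A26 on the opposite strand and fell, with a log2 difference of -0.87. The peroxisomal carrier SLC25A17 (-0.13) and the NAD carrier SLC25A51 (0.08) were not called. SLC25A17 depended on the libraries used, at -0.21 and called without PBS replicate 1 (adjusted p = 0.0239, limma) but at -0.03 without PBS replicate 3, and it was called at -0.28 after removal of the trend with GC content and length (adjusted p = 0.0136, limma). SLC25A52, a near copy of SLC25A51, had at most 4 counts in any library, and reads could be split between such copies.

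The adenine nucleotide and phosphate carriers were 7 tested rows, with 3 higher, 2 lower and 2 not called. SLC25A5, the main ADP/ATP carrier of dividing cells, was at 206, 211 and 231 FPKM in PBS replicates 1, 2 and 3 and at 164, 155 and 155 in PP replicates 1, 2 and 3. It was the highest member in every library, and all PP libraries were below all PBS libraries. The log2 difference was -0.45 ± 0.05 (SE, adjusted p = 9.16e-06, limma). SLC25A4, the ADP/ATP carrier of heart and muscle, was at 7.88, 6.86 and 7.43 FPKM in PBS replicates 1, 2 and 3 and at 8.86, 8.30 and 8.58 in PP replicates 1, 2 and 3, a log2 difference of 0.19 ± 0.06 (SE, adjusted p = 0.0119, limma). The PP libraries were above the PBS libraries, but the call was lost without PBS replicate 2 (adjusted p = 0.0530, limma). SLC25A5 thus stood at 29.4 ± 2.79 times the FPKM of SLC25A4 with PBS and at 18.4 ± 0.352 times with PP (SD, n = 3 each). RefSeq lists 9 pseudogenes of SLC25A5, and the share of its reads that the counting assigned elsewhere is not known. The same limit holds for other members with pseudogenes, among them SLC25A1 and SLC25A15 with 5 each. SLC25A6, the third ADP/ATP carrier, was listed at 0 in all libraries, and SLC25A6-2 at 1.05 to 2.33 FPKM. The gene lies in the pseudoautosomal region, present on both X and Y, so neither row can be read as its level.

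The ATP-Mg/phosphate carriers, which exchange ATP-Mg for phosphate under control of calcium and so set the adenine nucleotide pool of the matrix, were called in opposite directions. SLC25A23 was at 14.2, 15.2 and 14.9 FPKM in PBS replicates 1, 2 and 3 and at 9.98, 10.2 and 10.03 in PP replicates 1, 2 and 3. SLC25A24 was at 10.03, 9.90 and 9.66 FPKM in PBS replicates 1, 2 and 3 and at 12.6, 14.3 and 15.7 in PP replicates 1, 2 and 3. SLC25A25 was at 9.18, 9.73 and 9.55 FPKM in PBS replicates 1, 2 and 3 and at 13.7, 11.8 and 11.5 in PP replicates 1, 2 and 3. SLC25A23 was thus the highest of the trio in all PBS libraries and the lowest in all PP libraries, and no gene had overlapping groups. The log2 differences were -0.51 ± 0.05 for SLC25A23 (SE, adjusted p = 3.47e-06, limma), 0.48 ± 0.07 for SLC25A24 (SE, adjusted p = 0.000107, limma) and 0.35 ± 0.06 for SLC25A25 (SE, adjusted p = 0.00075, limma). The ratio of SLC25A24 to SLC25A23 went from 0.669 ± 0.0330 to 1.41 ± 0.149 (SD, n = 3 each). SLC25A41, the fourth such carrier, had at most 3 counts. The phosphate carrier SLC25A3 was at 36.5 ± 0.921 FPKM with PBS and 34.6 ± 0.969 with PP (SD, n = 3 each) and was not called (log2 difference -0.08, adjusted p = 0.105, limma). After removal of the trend with GC content and length it was called lower, at -0.16 (adjusted p = 0.00431, limma).

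**Figure D3:**
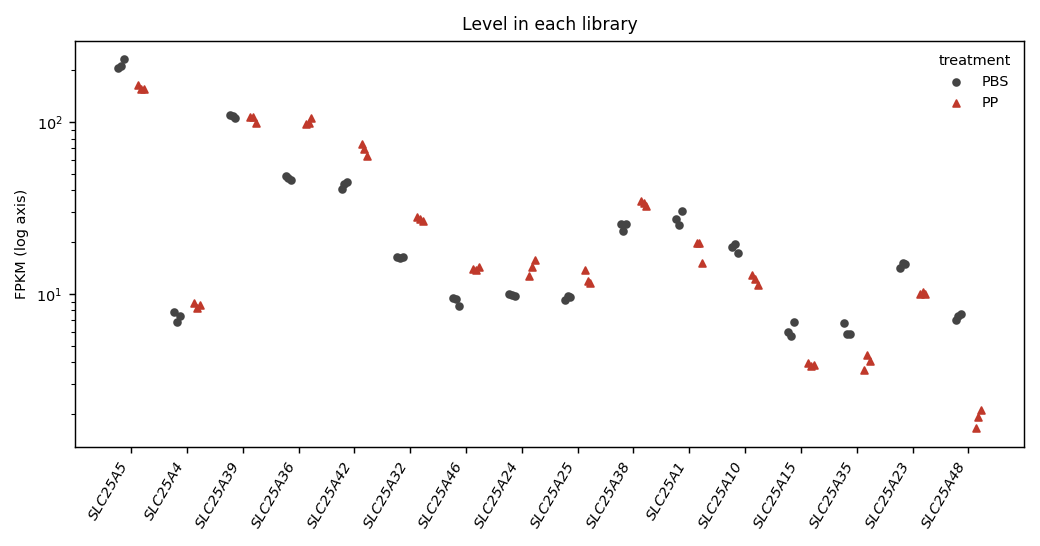
FPKM (log y axis) of 16 carriers in each library, with PBS as circles and PP as triangles. SLC25A36 lies between 46.2 and 48.4 with PBS and between 97.4 and 105 with PP, SLC25A48 lies between 7.07 and 7.60 with PBS and between 1.65 and 2.10 with PP, and the groups of SLC25A39 overlap.

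The carboxylate and acylcarnitine carriers were 5 tested genes, of which 3 fell, 2 were not called and none rose. SLC25A1, the citrate carrier that exports citrate for fatty acid synthesis, was at 27.2, 25.1 and 30.4 FPKM in PBS replicates 1, 2 and 3 and at 19.8, 19.6 and 15.0 in PP replicates 1, 2 and 3. The lowest PBS library was above the highest PP library, and the log2 difference was -0.58 ± 0.10 (SE, adjusted p = 0.000391, limma). SLC25A10, the dicarboxylate carrier of malate and succinate, was at 18.6, 19.4 and 17.3 FPKM in PBS replicates 1, 2 and 3 and at 12.9, 12.3 and 11.2 in PP replicates 1, 2 and 3. Its groups also did not overlap, with a log2 difference of -0.57 ± 0.06 (SE, adjusted p = 1.25e-05, limma). SLC25A11, the oxoglutarate/malate carrier, went from 59.4 ± 2.80 to 42.0 ± 2.07 FPKM (SD, n = 3 each), a log2 difference of -0.49 (adjusted p = 6.63e-06, limma). The carnitine/acylcarnitine carrier SLC25A20, needed for fatty acid oxidation, was at 6.31 ± 0.474 FPKM with PBS and 6.23 ± 0.163 with PP (SD, n = 3 each). The oxodicarboxylate carrier SLC25A21 was at 2.09 and 2.03 FPKM, and 30.3% of its exon bases are shared with PAX9 on the opposite strand, a gene at 31.0 FPKM with PBS and 21.3 with PP, so its value is uncertain.

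The amino acid carriers were 7 tested genes, with 4 lower, 1 higher and 2 not called. SLC25A15, the ornithine carrier of the urea cycle, was at 6.02, 5.65 and 6.82 FPKM in PBS replicates 1, 2 and 3 and at 3.98, 3.79 and 3.83 in PP replicates 1, 2 and 3. The groups did not overlap, and the log2 difference was -0.55 ± 0.07 (SE, adjusted p = 3.45e-05, limma). SLC25A13, an aspartate/glutamate carrier also called citrin, had a log2 difference of -0.40 (adjusted p = 1.23e-05, limma), while its relative SLC25A12, also called aralar, was at -0.08 (adjusted p = 0.183, limma). SLC25A12 was called lower, at -0.21 (adjusted p = 0.00583, limma), once the trend with transcript GC content and length was removed from each library. SLC25A29, a carrier of basic amino acids, was at -0.28 (adjusted p = 0.0011, limma) and the glutamate carrier SLC25A22 at -0.16 (adjusted p = 0.0193, limma). The call for SLC25A22 was lost without PBS replicate 2 (adjusted p = 0.0641, limma) and without PP replicate 3 (adjusted p = 0.0661, limma).

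SLC25A38, the glycine carrier that supplies heme synthesis, was the amino acid carrier that rose. It was at 25.3, 23.0 and 25.3 FPKM in PBS replicates 1, 2 and 3 and at 34.7, 33.6 and 32.6 in PP replicates 1, 2 and 3. The lowest PP library was well above the highest PBS library, and the log2 difference was 0.44 ± 0.05 (SE, adjusted p = 1.44e-05, limma). SLC25A44, a carrier of branched-chain amino acids, was at -0.09 and was not called. SLC25A2 and SLC25A18, which carry ornithine and glutamate, had at most 1 count in any library.

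Of the 4 iron and glutathione carriers, 3 rose. SLC25A37 (mitoferrin-1), which brings iron into the matrix, went from 4.65 ± 0.128 to 6.398 ± 0.226 FPKM (SD, n = 3 each), a log2 difference of 0.39 (adjusted p = 8.23e-05, limma). Its relative SLC25A28 (mitoferrin-2) was at 0.15 (adjusted p = 0.0476, limma), a call lost when any library other than PBS replicate 2 was left out. SLC25A39, a glutathione carrier and the second highest member, was at 109.6, 108 and 106 FPKM in PBS replicates 1, 2 and 3 and at 106, 107 and 98.2 in PP replicates 1, 2 and 3. Its groups overlapped, and it was not called (log2 difference -0.05, adjusted p = 0.282, limma). SLC25A40, the related carrier, had a log2 difference of 0.24 (adjusted p = 0.0017, limma). Removing from each library the trend with transcript GC content and length moved SLC25A40 to 0.07 (adjusted p = 0.132, limma) and SLC25A39 to 0.09 (adjusted p = 0.0231, limma), so how far the pair differed in response depends on that step.

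Among the relatives of the uncoupling proteins, SLC25A27 (UCP4) rose from 16.1 ± 0.380 to 20.3 ± 0.952 FPKM (SD, n = 3 each), with a log2 difference of 0.32 (adjusted p = 0.000113, limma). SLC25A14 (UCP5) and SLC25A30 (KMCP1) were at -0.04 and 0.03 and were not called. The other carriers, whose substrates are less settled or which have another role, were 5 tested genes, with 2 higher and 3 lower. SLC25A48, reported to carry choline, lies on chromosome 5 from 134812603 to 135225459 on the plus strand (hg19). It was at 7.07, 7.45 and 7.60 FPKM in PBS replicates 1, 2 and 3 and at 1.65, 1.93 and 2.10 in PP replicates 1, 2 and 3. Every PP library was far below every PBS library, from at least 820 counts with PBS to at most 259 with PP. The log2 difference was -1.54 ± 0.07 (SE, adjusted p = 2.61e-08, limma), and the gene went from the 26th to the 39th level in the family.

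SLC25A46, which sits in the outer membrane and acts in mitochondrial dynamics, was at 9.48, 9.29 and 8.48 FPKM in PBS replicates 1, 2 and 3 and at 13.9, 13.7 and 14.3 in PP replicates 1, 2 and 3. The groups were well separated, with a log2 difference of 0.57 ± 0.05 (SE, adjusted p = 3.71e-06, limma). SLC25A35 was at 6.74, 5.81 and 5.85 FPKM in PBS replicates 1, 2 and 3 and at 3.58, 4.38 and 4.06 in PP replicates 1, 2 and 3. Its groups did not overlap either (log2 difference -0.51 ± 0.08, SE, adjusted p = 0.000149, limma), but 28.7% of its exon bases are shared with RANGRF on the opposite strand, which had a log2 difference of -0.24. SLC25A45 was at -0.50 (adjusted p = 1.28e-05, limma) and SLC25A43 at 0.25 (adjusted p = 0.00582, limma). In a fit that kept genes whose mean FPKM reached 0.1, SLC25A34 had a log2 difference of -0.31 (adjusted p = 0.0104, limma, 70 to 160 counts) and SLC25A53 of -0.24 (adjusted p = 0.00763, limma, 57 to 103 counts). SLC25A31 and SLC25A47, with expression known from testis and liver, had at most 1 count in any library.

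Related carriers were then compared with each other, as the difference in the log2 ratio of their FPKM + 1 between PP and PBS. Of 15 pairs, 10 had both members above the filter. With 3 libraries per group, the exact two-sided permutation test cannot go below p = 0.1, and the adjusted p over 10 pairs was 0.125 or higher. For 8 of 10 pairs the ratios of the groups did not overlap and p was 0.1, beside the 75% of all single tested genes whose groups did not overlap. The share for ratios of other gene pairs was not computed. The widest shift was in SLC25A23 over SLC25A24, at -0.99 ± 0.09 (SE), followed by SLC25A23 over SLC25A25 at -0.85 ± 0.08 and SLC25A33 over SLC25A36 at -0.83 ± 0.08. SLC25A36 was at 2.70 ± 0.146 times the FPKM of SLC25A33 with PBS and at 4.81 ± 0.444 times with PP (SD, n = 3 each). The ratio of SLC25A16 over SLC25A42 shifted by -0.66 ± 0.13, of SLC25A4 over SLC25A5 by 0.64 ± 0.08 and of SLC25A12 over SLC25A13 by 0.31 ± 0.05. SLC25A39 over SLC25A40 was at -0.29 ± 0.08 and SLC25A28 over SLC25A37 at -0.24 ± 0.06. In SLC25A14 over SLC25A30 (-0.07 ± 0.05, exact permutation p = 0.3) and SLC25A24 over SLC25A25 (0.14 ± 0.16, exact permutation p = 0.4) the groups overlapped.

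**Figure D4:**
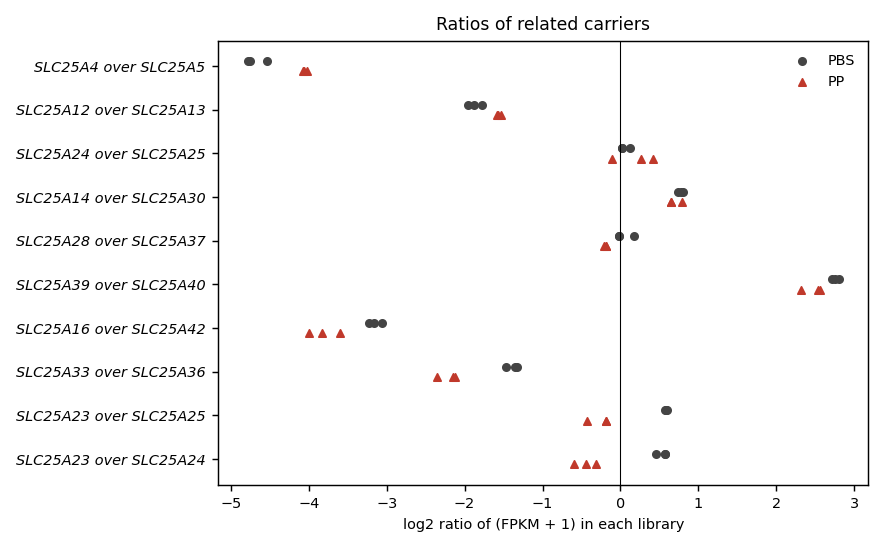
Log2 ratio of FPKM + 1 (x axis) of 10 pairs of related carriers (y axis) in each library, with PBS as circles and PP as triangles. SLC25A23 over SLC25A24 and SLC25A23 over SLC25A25 lie above 0 in the 3 PBS libraries and below 0 in the 3 PP libraries.

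The promoters of the members were then searched, since SLC25A36 and SLC25A33 are both carriers of pyrimidine nucleotides and both rose. Motifs were chosen after the results were known. The window was the 250 bases before each RefSeq gene start (GRCh38.p14), found for 40 member genes and 13550 genes in all, and both strands were read. The E-box CACGTG was present in 8 member promoters, against 10.4% of all promoters. Of these 8 members, 5 were among the higher (SLC25A26, SLC25A33, SLC25A36, SLC25A38 and SLC25A46), 1 was lower (SLC25A13), 1 was not called (SLC25A51) and 1 was untested (SLC25A31). The cyclic AMP response element TGACGTCA was present in SLC25A25, SLC25A33 and SLC25A36, against 2.97% of all promoters, and these 3 members rose. Of all tested genes, 38.1% rose, and the share that rose among all genes with either motif was not computed. TGATGNAA, a composite site of C/EBP and ATF factors, matched in SLC25A11 alone (2.99% of all promoters). A palindromic site of NRF1 matched in no member promoter (1.89% of all promoters). The letters of these motifs do not overlap in the windows shown. A match of letters is a description and does not show that a factor bound there.

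The windows around the matches in SLC25A36 and SLC25A33, which held both motifs, are shown first, then 1 member with the cyclic AMP response element alone, 2 higher members with the E-box alone, and the lower member with an E-box, for contrast. All are from RefSeq GRCh38.p14 and are written 5′ to 3′ on the strand of the gene, with motif letters in capitals. They lie at chr3:140941683-140941736 (plus strand), chr1:9539406-9539454 (plus), chr9:128098297-128098324 (plus), chr3:39383316-39383341 (plus), chr5:110738950-110738975 (plus) and chr7:96322237-96322262 (minus), in the order printed.
SLC25A36: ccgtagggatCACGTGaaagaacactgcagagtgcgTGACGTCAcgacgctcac
SLC25A33: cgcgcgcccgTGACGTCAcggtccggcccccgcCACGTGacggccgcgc
SLC25A25: gagggagcggTGACGTCAgccctgatct
SLC25A38: agaacaccctCACGTGacaagcgtcc
SLC25A46: aggctataatCACGTGctccgaagac
SLC25A13: gcagcggggtCACGTGtccctgtcca

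In SLC25A36 the E-box lay before the cyclic AMP response element, and in SLC25A33 after it. The windows began 153 bases before the start of SLC25A36 and 59 bases before that of SLC25A33.

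The 3′ untranslated regions (UTRs) were described because AU-rich elements there are bound by ELAV proteins, the family the study addressed. The letters ATTTA, the DNA spelling of the AU-rich pentamer, were counted in the canonical GENCODE transcript of each gene on hg19. This feature was also chosen after the results were known. The 16 higher members had a median of 4.5 matches, and 11 of them had at least 3. The 12 lower members had a median of 0 and none had more than 2. The 11 members not called that had an annotated UTR had a median of 4, and 6 of them had at least 3. Among the other tested genes, 56.5% of the higher, 37.7% of the lower and 45.9% of those not called had at least 3 matches. The AT content of the UTR followed the same order between higher and lower, with medians of 57.0% and 45.6% in the members and 61.6% and 52.5% in the other genes. SLC25A36 had the highest number of matches, at 21 in 4542 bases, and SLC25A24, SLC25A40 and SLC25A46 had 14 each. SLC25A16, with 16 matches, was not called, and SLC25A42, which rose, had 2. SLC25A48 had 0 in 613 bases. The median UTR length was 1978 bases in the higher, 953 in the lower and 1869 in the members not called. The part of length and base composition in the number of matches was not tested.

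The fit was also repeated after the trend of each library with transcript GC content and length had been removed. This gave 15 higher and 16 lower members, against 16 and 12 before. Of the 28 called members, 25 were called again, and SLC25A22 (-0.02), SLC25A26 (0.10) and SLC25A40 (0.07) were not. Members that gained a call as lower were SLC25A17 (-0.28), SLC25A12 (-0.21), SLC25A21 (-0.21), SLC25A3 (-0.16) and SLC25A30 (-0.14), and SLC25A39 (0.09) gained one as higher. SLC25A36 stayed higher at 0.91 and SLC25A48 stayed the lowest at -1.42, while SLC25A24 (0.31), SLC25A27 (0.16) and SLC25A29 (-0.14) kept their calls with smaller differences.

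The proteins around the carriers were described from lists written from general knowledge. Beside the counts of each list, 38.1% of all tested genes rose and 34.4% fell, and no list was tested as a set. Among carrier-fold proteins under other symbols, 4 of 4 tested fell: UCP2, an uncoupling protein relative that exports carboxylates (-0.57, adjusted p = 2.29e-06, limma), MTCH2, an outer membrane insertase (-0.31, adjusted p = 0.000279, limma), UCP3 (-0.25, adjusted p = 0.0243, limma) and MTCH1 (-0.24, adjusted p = 0.000153, limma). The count was 3 without PBS replicate 1, without PBS replicate 3 or without PP replicate 2. It was also 3 with a filter of 5 FPKM and after removal of the trend with GC content and length. UCP1 was close to 0. In the TIM22 pathway, which inserts the carriers, 2 of 7 rose and none fell. TIMM9, a small chaperone of the intermembrane space, went from 19.95 ± 1.62 to 37.2 ± 3.31 FPKM (SD, n = 3 each), a log2 difference of 0.86 (adjusted p = 1.63e-06, limma), and TOMM70, the outer membrane receptor for carriers, was at 0.37 (adjusted p = 2.25e-05, limma). TIMM22, the channel itself, was at -0.01, its partners TIMM29 and AGK at 0.05 and -0.13, and TIMM10 and TIMM10B at 0.11 and -0.04, and these 5 were not called.

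The enzymes of the malate-aspartate shuttle work with SLC25A11, SLC25A12 and SLC25A13. Together with those of the glycerol phosphate shuttle, they were 6 tested genes, with 1 higher and 3 lower. The cytosolic transaminase GOT1 went from 28.2 ± 0.852 to 52.1 ± 1.34 FPKM (SD, n = 3 each), a log2 difference of 0.86 (adjusted p = 2.51e-08, limma). MDH1, the cytosolic malate dehydrogenase, fell by 0.62 on the log2 scale (adjusted p = 4.89e-06, limma), and the mitochondrial GOT2 and MDH2 fell by 0.32 each (adjusted p = 6.63e-05 and 9.07e-05, limma). GPD1L and GPD2 were at -0.04 and close to 0 and were not called, and GPD1 was below the filter. Among other mitochondrial transport proteins, 5 of 24 tested rose and 11 fell, beside 38.1% and 34.4% of all tested genes. MPC1, a subunit of the pyruvate carrier, was the highest, going from 9.69 ± 0.0652 to 26.8 ± 1.69 FPKM (SD, n = 3 each; log2 difference 1.38, adjusted p = 5.43e-09, limma), and the outer membrane protein TSPO was the lowest at -0.61 (adjusted p = 0.000291, limma). MPC2, the partner of MPC1, named after its value was seen, was at -0.08 and was not called.

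The labelled cell type was checked by markers. All 9 listed neuroendocrine markers passed the filter, of which 5 fell, 2 rose and 2 were not called. One that fell is not reported by name here. The summed FPKM of the 8 described was 282 to 288 in the PBS libraries and 255 to 265 in the PP libraries. This sum leaves out the unnamed marker, so it does not give the size of the fall over the whole list. Of the 8, CHGA (-0.78), CHGB (-0.32), SYP (-0.23) and ENO2 (-0.15) fell, SCG2 (0.66) and INSM1 (0.21) rose, and NCAM1 and SCG3 were not called. Fibroblast, leukocyte and endothelial markers summed to at most 4.79, 3.08 and 4.69 FPKM in any library, and PECAM1, PTPRC and CD3E were at or near 0. Single markers of these lists were above the filter, of which COL1A1 (3.30 FPKM with PBS and 4.16 with PP) rose by 0.26 and CDH5 (3.60 and 2.52) had a log2 difference of -0.39, while CD14 and CD68 were at 1.09 to 1.47 FPKM and were not called. The neuroendocrine markers moved with treatment alongside the carriers, and their part in the carrier results was not tested. In bulk RNA, fewer cells of a kind and less RNA per cell cannot be told apart.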

How the data were processed

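NCI-H660 libraries (PBS and PP, 3 each) were compared. The authors deposited FPKM per gene symbol. Their methods name a HiSeq2000, hg19, Bowtie, RSEM, Cufflinks and HTSeq with 2 samples per group, whereas the labels name a HiSeq X system, a stranded mRNA kit, 3 libraries per group and, in the submitters' processing notes, GRCh38, fastp, HISAT2 and HTSeq. Which produced the table, and whether counting used strand, is not given in the sources used here. FPKM depends on the gene length used.

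For all 17177 genes (268 at 0 throughout) the values were whole multiples of a step within 0.01 count, so counts were recovered. The 11726 genes whose mean FPKM reached 1 were fitted on log2(FPKM + 1), pseudocount 1, with limma 3.58.1 in R 4.3.3 (lmFit, eBayes with trend) and adjusted by Benjamini-Hochberg over all. In simulated data for this comparison (11726 genes), 197 of 200 altered genes were called in their true direction and 20 unaltered ones were called. The altered genes were changed by at least 1 on the log2 scale, so smaller differences, like those of most called carriers, were not covered. Only 200 of the 11726 genes were altered, whereas 38.1% of tested genes rose and 34.4% fell in the data. The extra spread between simulated libraries was also set to 1 value for all genes. The simulation therefore does not give the rate of false calls in the data. In a simulation of 3000 genes, 98.2% with a mean count of 10 or more were recovered exactly. Ratios and figures used Python 3.11.15.

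Members, lists and motifs were chosen with earlier results of these data known. Values in every library are given for members past the cutoff, the 6 highest and 6 lowest called members, the 4 highest levels, and related pairs called in opposite directions. The highest and lowest called gene of each pathway list, and all of lists up to 10, are named. Positions are from GENCODE on hg19 and promoters from RefSeq GRCh38.p14. Alternatives varied pseudocount, filter, scaling, trend, libraries, replicate block and unit (limma-voom on counts). The GC and length correction and the ratios without each library were added after seeing the data. The results for some genes, 1 carrier among them, are counted but not reported by name here.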

Additional observations from a re-analysis of the deposited data

How the results depend on the processing

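The count of higher carriers was 16 and stayed between 13 and 15 when 1 library was left out, and that of lower carriers was 12 and stayed between 11 and 13. With the replicate block, 13 rose and 12 fell, and 25 of the 28 calls were kept, the losses including SLC25A26 (0.17, adjusted p = 0.0810, limma) and SLC25A28 (0.15, adjusted p = 0.0626, limma). The correlations of same-numbered deviations were -0.211, -0.014 and -0.127, which gave no sign that the replicate numbers pair the libraries. With 3 libraries per group, these values cannot show that the libraries were unpaired. SLC25A26 and SLC25A28 were also among the calls lost with median-ratio scaling or with no filter. With limma-voom on recovered counts, 14 rose and 12 fell.

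The number past the study's cutoff was 2 and became 1 with a filter of 5 FPKM, since SLC25A48 was then not tested, and 1 after the GC and length trend was removed. That removal also gave 4 higher TIM22 genes in place of 2 and 5 lower shuttle enzymes in place of 3. For TIM22 genes, 1 was lower in place of 0 with no eBayes trend, with limma-voom and after the trend removal. The cause was not tested for these counts. The summed FPKM changed by 0.048%, and by -0.962% with median-ratio scaling and by -0.822% to 1.22% when 1 library was left out, so its sign is not fixed.

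Signs turned for members not called. Leaving out 1 library gave -0.046 to 0.044 for SLC25A16, -0.048 to 0.039 for SLC25A20, -0.068 to 0.012 for SLC25A21 and -0.26 to 0.088 for SLC25A6-2. The trend removal gave -0.14 for SLC25A30 (adjusted p = 0.0475, limma) and 0.094 for SLC25A39 (adjusted p = 0.0231, limma). Members with few counts, such as SLC25A6-2 (50 to 102 counts), are known only roughly. The exact permutation test of a ratio cannot go below p = 0.1 with 3 libraries per group.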
